A study of Mus musculus with 2 samples.

Results

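The sites described here are the TR binding sites (TRBS) that lie between genes but close to a gene. A TRBS is a peak of chromatin occupancy by the thyroid hormone receptor. A site was taken when the summit of its peak, the position of the highest pileup, lay on an autosome, over 1 kb and at most 30 kb from the nearest transcription start site (TSS) of a protein-coding gene, and outside the body of every protein-coding gene. The TSS was the 5′ end of the gene record in the basic GENCODE annotation of GRCm38. Of the 5107 TRBS in the list, 5035 were on autosomes, and 845 of these (16.8%, 95% Wilson interval 15.8 to 17.8%) met the rule. Upstream of the nearest TSS lay 662 sites, and 183 lay past the 3′ end of the gene with the nearest TSS. The other autosomal TRBS were 601 sites at most 1 kb from a TSS, 1427 sites between 1 and 30 kb that lay inside a gene body, and 2162 sites over 30 kb away. Near the limits of the rule, a site 1001 bp upstream of Acsf2 (23 fragments at the summit) was the innermost site taken and one 977 bp upstream of Nrp1 (77 fragments) was left out. At the outer limit a site 29995 bp upstream of Psmc1 (45 fragments) was taken, and one 30130 bp upstream of Myl10 (152 fragments) was left out.

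Chromatin was taken from the brown adipose tissue of C57BL/6J mice, adult males aged 8 to 12 weeks. Their genotype was TRa1 GS-tagged, which means that a version of the receptor TRa1 carrying a GS tag was made in brown adipocytes and in no other cell type of the tissue. All mice had eaten food with propylthiouracil, a blocker of thyroid hormone synthesis, for 2 weeks to become hypothyroid, and had then been injected with thyroid hormones during 24 h. There was 1 ChIP library and 1 input library, made from the chromatin without immunoprecipitation, so hormone-free and hormone-treated chromatin could not be compared and no replicate error can be given. The tagged receptor stands for TRa1 alone, and whether its level equals that of the native receptor was not tested. Intervals given below cover counting error only, and neighbouring sites are not independent.

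Thyroid hormone receptors are nuclear receptors that sit on chromatin with and without hormone, mostly as heterodimers with the retinoid X receptor (RXR). The heterodimer is best known for binding DR4 elements, a pair of AGGTCA half-sites repeated in the same direction with a short spacer, with RXR on the 5′ half-site and the receptor on the 3′ one. In brown adipose tissue, thyroid hormone acts together with noradrenergic signals on heat production by uncoupled respiration, and on the making and burning of fat.

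DR4 elements were searched in the whole of each peak as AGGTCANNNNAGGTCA on both strands, with at most 2 mismatches over the 12 bases of the half-sites. The elements without a mismatch are shown first because they are the closest matches to the receptor's known binding sequence among these sites. They lay in 7 sites (0.828%, against 0.854% of all autosomal TRBS), of which 4 were upstream of a gene and 3 past a 3′ end. For each site, 1 such element is given 5′ to 3′ on its own strand of GRCm38 with 12 bases on each side, and capitals mark the half-sites.
Cbfb, upstream, chr8:105167196-105167235, plus strand: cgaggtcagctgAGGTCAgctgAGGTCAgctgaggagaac
Dnah6, upstream, chr6:73232732-73232771, plus strand: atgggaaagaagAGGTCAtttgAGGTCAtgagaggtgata
Ndufs4, upstream, chr13:114405014-114405053, plus strand: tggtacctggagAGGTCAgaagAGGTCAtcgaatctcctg
Higd1a, upstream, chr9:121874888-121874927, minus strand: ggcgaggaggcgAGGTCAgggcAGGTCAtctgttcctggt
Olfr385, past the 3′ end, chr11:73579978-73580017, plus strand: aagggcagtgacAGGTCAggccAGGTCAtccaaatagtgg
Socs1, past the 3′ end, chr16:10761385-10761424, minus strand: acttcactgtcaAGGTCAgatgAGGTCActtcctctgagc
Acrv1, past the 3′ end, chr9:36702199-36702238, plus strand: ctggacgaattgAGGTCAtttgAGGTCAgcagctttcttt

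The spacers of these elements differed except at Dnah6 and Acrv1, where it was tttg. At Cbfb, which encodes the partner subunit of RUNX transcription factors, a further AGGTCA preceded and a looser half-site followed in the same phase, so that 3 overlapping DR4 matches lay in the peak. A match without mismatches did not mark a strong site. The Cbfb site had 43 fragments at its summit and the Olfr385 site, near an olfactory receptor gene, had 29. The site past Socs1, which encodes an inhibitor of cytokine signalling, had 21 fragments, and the site upstream of Dnah6, a dynein heavy chain gene, had 20. The sites at Ndufs4, which encodes a subunit of respiratory complex I, and at Higd1a, which encodes a mitochondrial protein induced by hypoxia, had 10 fragments each, and that at Acrv1, an acrosomal protein gene, had 8. The elements at Ndufs4 and Higd1a lay 114 and 102 bp from the summit, and the others 10 to 46 bp from it.

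The next sequences are DR4 elements with 1 mismatch, or with 2 mismatches in the case of Vegfa, under some of the strongest summits. They are shown because they sit 3 to 33 bp from a summit with at least 64 fragments.
Ceacam16, upstream, chr7:19864422-19864461, minus strand: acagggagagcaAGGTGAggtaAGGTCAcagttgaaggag
Dlg1, upstream, chr16:31652357-31652396, minus strand: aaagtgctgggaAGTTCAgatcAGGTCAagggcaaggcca
Prss52, upstream, chr14:64100046-64100085, minus strand: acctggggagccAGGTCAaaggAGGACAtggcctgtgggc
Tmem189, upstream, chr2:167696180-167696219, minus strand: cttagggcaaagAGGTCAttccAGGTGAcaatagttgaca
Cdkn2c, past the 3′ end, chr4:109657645-109657684, plus strand: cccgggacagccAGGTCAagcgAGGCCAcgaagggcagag
Vegfa, past the 3′ end, chr17:46010449-46010488, minus strand: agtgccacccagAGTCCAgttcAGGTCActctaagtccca

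The upstream site with the most fragments, at Ucp1, held no DR4 by this search, and its sequence is shown for that reason. The run covers 100 bp on each side of the summit on the plus strand. Neither AGGTCA nor its complement occurs in it, so nothing is in capitals.
Ucp1, 4514 bp upstream, chr8:83285738-83285938, plus strand: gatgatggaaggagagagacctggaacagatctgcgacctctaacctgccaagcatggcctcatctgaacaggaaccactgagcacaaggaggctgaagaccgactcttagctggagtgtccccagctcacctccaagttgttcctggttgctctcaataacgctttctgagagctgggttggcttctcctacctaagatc
The second Ucp1 site, also without a DR4, had a single AGGTCA half-site in the same kind of window, in capitals.
Ucp1, 2462 bp upstream, chr8:83287790-83287990, plus strand: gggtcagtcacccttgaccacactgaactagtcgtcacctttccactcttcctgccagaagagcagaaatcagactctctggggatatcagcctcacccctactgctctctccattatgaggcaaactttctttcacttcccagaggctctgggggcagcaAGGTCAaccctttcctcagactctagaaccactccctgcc

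The position of the sites was compared with the amount of sequence that could hold them, because there is far more intergenic sequence upstream of a nearest TSS than past the 3′ end of its gene. A site past the 3′ end can meet the rule only when the gene is shorter than 30 kb, which holds for 13468 of 20807 autosomal protein-coding genes (64.7%). The genes nearest to such sites had a median length of 7996 bp, against 23685 bp for genes with an upstream site. Outside assembly gaps, 261.3 Mb of autosomal sequence met the rule upstream and 73.7 Mb past the 3′ end. The share of sites upstream was 78.3% (75.4 to 81.0%), and the share of this sequence upstream was 78.0%. The density was 2.53 TRBS per Mb upstream (95% Poisson interval 2.34 to 2.73) and 2.48 per Mb past the 3′ end (2.14 to 2.87). The ratio of the densities was 1.02 (exact interval 0.865 to 1.21), so a difference between the 2 sides was not detectable at this number of sites. With genes of all types in place of protein-coding genes the ratio was 1.15 (1.02 to 1.31), an interval that does not hold 1. Together, gene-near intergenic sequence held 2.52 TRBS per Mb (2.36 to 2.70), which was 1.24 times (1.15 to 1.34) the density of the rest of the autosomal sequence.

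Upstream of the TSS, sites were denser close to the gene. Between 1 and 2 kb there were 64 sites, or 4.01 per Mb (3.09 to 5.12). Between 2 and 5 kb there were 131 sites at 3.05 per Mb, between 5 and 10 kb 138 sites at 2.37, and between 10 and 20 kb 201 sites at 2.37. The outermost 10 kb held 128 sites at 2.16 per Mb (1.80 to 2.57), and the ratio of the innermost to the outermost density was 1.86 (1.35 to 2.53). Past the 3′ end the density by distance from the TSS was 1.29 per Mb from 1 to 2 kb (1 site), 3.83 from 2 to 5 kb (18 sites), 1.73 from 5 to 10 kb (24 sites), 2.37 from 10 to 20 kb and 2.82 from 20 to 30 kb (70 sites each), with no steady order. Counted from the 3′ end instead, the density was 3.06 per Mb (2.20 to 4.15) in the first 2 kb with 41 sites, 2.87 per Mb from 2 to 5 kb, 2.34 per Mb from 5 to 10 kb and 2.06 per Mb (1.55 to 2.69) beyond 10 kb. The ratio of the first to the last of these was 1.49 with an interval of 0.965 to 2.27, which includes equality.

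**Figure D1:**
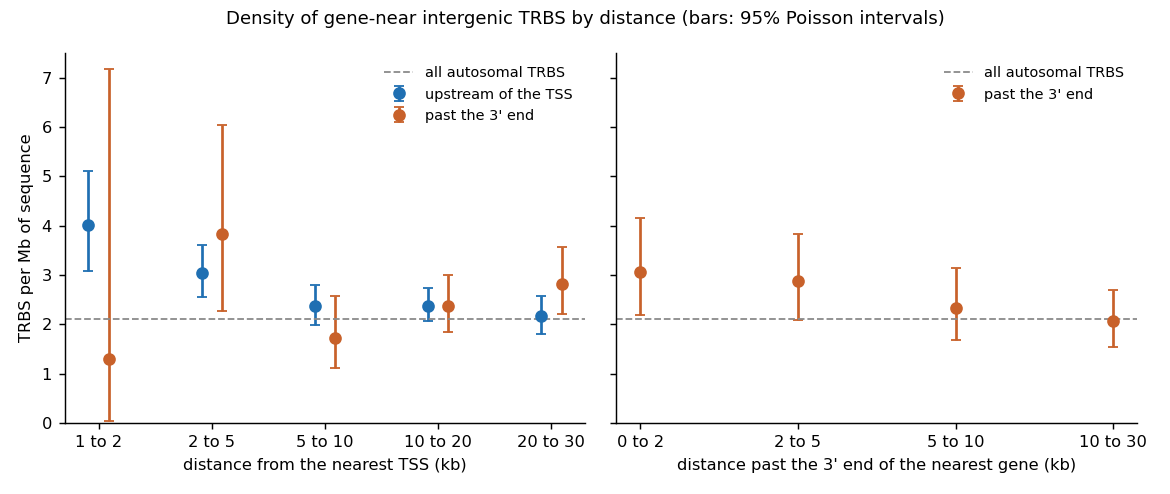
Number of gene-near intergenic TRBS per Mb of sequence meeting the same rule, by distance from the nearest TSS (left) and by distance past the 3′ end (right). Points are densities with 95% Poisson intervals and the dashed line is the density of all autosomal TRBS (2.10 per Mb). Upstream density falls from 4.01 to 2.16 per Mb with distance, and the intervals past the 3′ end overlap each other in the right panel.

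In gaps between genes of the same orientation, the sides differed in density. A gap between genes is tandem when both neighbours point the same way, divergent when it is flanked by 2 gene starts and convergent when it is flanked by 2 gene ends. In tandem gaps 408 upstream sites gave 2.74 per Mb (2.49 to 3.02) and 75 sites past a 3′ end gave 1.93 per Mb (1.52 to 2.42). This is a ratio of 1.42 (1.11 to 1.84), and it was 1.39 (1.06 to 1.84) for sequence and sites over 5 kb from the TSS. Convergent gaps held 105 sites past a 3′ end at 3.02 per Mb (2.47 to 3.66), which was 1.56 times (1.15 to 2.13) the density past 3′ ends in tandem gaps. The 7 upstream sites in convergent gaps gave 2.89 per Mb with a wide interval (1.16 to 5.96), so no difference between the sides was detectable there. Divergent gaps held 246 upstream sites at 2.24 per Mb (1.97 to 2.54), and tandem gaps exceeded them upstream by 1.22 times (1.04 to 1.44). Past 3′ ends, density was therefore lower in tandem gaps and higher in convergent gaps, while the densities pooled over all gaps were nearly equal on the 2 sides. Unmappable and repeated sequence was not removed from the Mb counted, and expression of the flanking genes was not used.

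**Figure D2:**
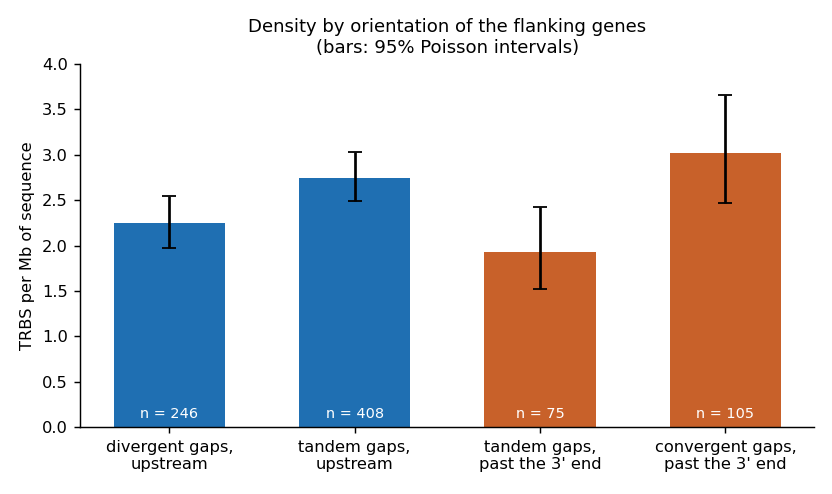
Density of gene-near intergenic TRBS by the orientation of the 2 flanking genes and the side of the nearest gene, in TRBS per Mb with 95% Poisson intervals and the number of sites in each bar. Sites past a 3′ end were sparsest in tandem gaps (1.93 per Mb) and densest in convergent gaps (3.02 per Mb).

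The nearest gene was not the only candidate for many sites. Of the 662 upstream sites, 122 also lay past the 3′ end of another gene whose TSS was at most 30 kb away, and 86 lay upstream of a second gene within that distance. Of the 183 sites past a 3′ end, 27 also lay upstream of another gene with its TSS at most 30 kb away, and 19 lay past the 3′ end of a second gene. A summit lay inside a gene of another type, such as a noncoding RNA, for 107 sites (12.7%, 10.6 to 15.1%). At most 1 kb from a TSS of any annotated gene lay 48 sites (5.68%).

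Sites upstream and past the 3′ end had nearly the same strength. Strength is given as the number of ChIP fragments at the summit, worked out from the fold and p-value of each peak. The median was 19 fragments on each side (95% interval 17 to 20 upstream and 16 to 21 past the 3′ end), with quartiles of 12 and 31 upstream and of 12 and 32 past the 3′ end. At least 50 fragments were found at 73 upstream sites (11.0%) and at 15 sites past a 3′ end (8.20%). The median fold over input was 10.6 upstream and 11.2 past the 3′ end, and the median width was 441.5 and 461 bp. GC content had a median of 50.3% (49.8 to 50.9%) upstream and 51.9% (50.6 to 52.6%) past the 3′ end. Repeats covered a median of 8.89% of the upstream sites and 6.83% of the others, and 11 sites were at least 80% repeat.

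A fold of at least 10 was reached by 48.6% of all autosomal TRBS and by 454 of the 845 sites (53.7%, 50.4 to 57.1%). The share was 53.5% upstream and 54.6% past the 3′ end. It exceeded that of TRBS at most 1 kb from a TSS by 15.3 percentage points (10.1 to 20.4) and that of gene-near TRBS in gene bodies by 5.94 points (1.68 to 10.2). The difference from TRBS over 30 kb away was 3.68 points with an interval of −0.293 to 7.63. The input background at the summit moved with the first of these differences, since its median was 0.672 fragments in the gene-near intergenic sites and 0.913 at TRBS close to a TSS, and its part in the result was not tested. Medians of the fragments themselves were 19 here, 17 close to a TSS, 16 in gene bodies and 17 over 30 kb away.

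**Figure D3:**
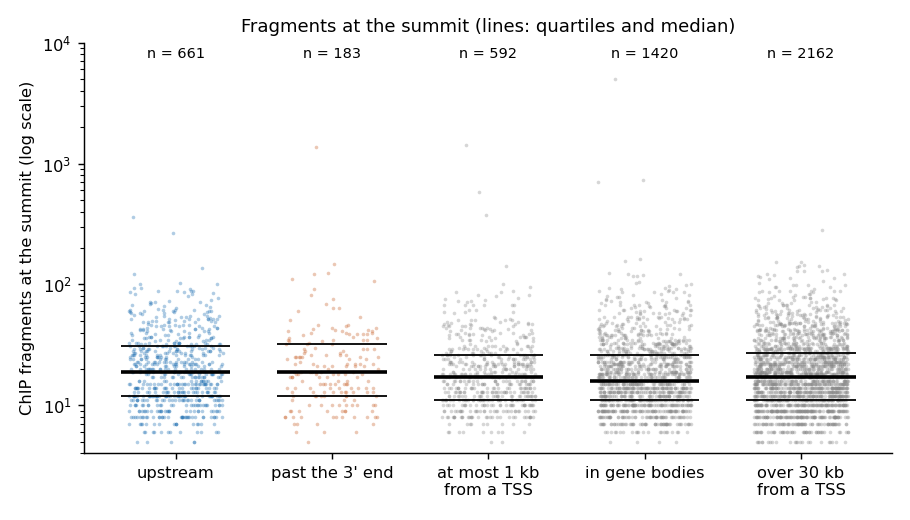
ChIP fragments at the summit of each TRBS on a log scale, for sites upstream (661), sites past the 3′ end (183) and the other autosomal TRBS. Each point is 1 TRBS with a recovered count and lines mark the quartiles and the median; both gene-near intergenic groups have a median of 19.

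DR4 elements were as common on the 2 sides as the counts could show. Among all autosomal TRBS 32.1% held a DR4, and among gene-near intergenic sites 280 did (33.1%, 30.04 to 36.4%), close to that background. The share was 33.7% (223 of 662) upstream and 31.1% (57 of 183) past the 3′ end, a difference of 2.54 points with an interval of −5.32 to 9.81. Windows as wide as the peak, placed 2 kb beyond its edges and called flanks here, held a DR4 in 4.82% of cases, and the share in the sites was 6.87 times that (5.43 to 8.71). With at most 1 mismatch there were 71 sites with a DR4 (8.40%, against 7.27% of all autosomal TRBS), 54 upstream and 17 past the 3′ end, against 6 of 1618 flanking windows. The share with a DR4 of at most 2 mismatches was higher by 10.2 points (5.48 to 14.7) than in TRBS close to a TSS. It differed by 1.46 points (−2.49 to 5.47) from TRBS in gene bodies and by −1.32 points (−5.02 to 2.47) from TRBS over 30 kb away.

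The element lay close to the summit. Its median distance from the summit was 24 bp upstream and 23 bp past the 3′ end, and it was at most 50 bp for 158 of 223 upstream sites (70.9%) and for 45 of 57 sites past a 3′ end (78.9%). Upstream, stronger sites held a DR4 more often. Sites were divided into 4 equal parts by fragments. In the part of the upstream sites with the fewest 26.5% (20.4 to 33.7%) held one, and in the part with the most 46.1% (38.6 to 53.7%) did. Past the 3′ end the shares went the same way, at 19.6% (10.7 to 33.2%) and 39.1% (26.4 to 53.5%), but their intervals overlap. The search covered the whole peak, and the parts were not matched for peak width, whose role was not tested. Even among the 165 upstream sites with the most fragments, only 76 held a DR4, and both Ucp1 sites above are among those without.

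Other arrangements of the half-site were searched in the same way. DR1, AGGTCANAGGTCA, which is bound by PPAR and RXR among others, was in 129 sites (15.3%), near the 15% of all autosomal TRBS and 1.83 times (1.46 to 2.30) its share in the flanks. DR5, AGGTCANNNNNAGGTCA, was in 128 sites (15.1%), against 11.8% of all autosomal TRBS, and this was 2.66 times its share in the flanks. The share of DR5 was above that in gene bodies by 3.51 points (0.647 to 6.53) and above that over 30 kb away by 3.40 points (0.728 to 6.28). It was the only one of the 10 motifs for which the interval of either difference left out 0, and the intervals are not adjusted for the number of motifs. The everted repeat ER6, TGACCTNNNNNNAGGTCA, was in 55 sites (6.51%), in 5.84% of all autosomal TRBS and in 1.73% of the flanks. Past the 3′ end it was in 15 of 183 sites and in 1 of 348 flanking windows, and upstream in 40 of 662 sites and 27 of 1270 windows. The inverted repeat without a spacer (IR0) was in 44 sites (5.21%, against 4.69% of all autosomal TRBS), 2.72 times its share in the flanks. A single AGGTCA without mismatch was in 504 sites (59.6%), in 56.3% of all autosomal TRBS and in 29.2% of the flanks. These motifs overlap, since each repeat holds half-sites and loose matches to DR4, DR5 and DR1 can share bases.

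Motifs of other factors were also present. The EBF motif TCCCNNGGGA, recognised by early B-cell factors such as the adipocyte regulator EBF2, was in 44 sites (5.21%), near the 4.57% of all autosomal TRBS. The flanks held it in 1.11% of cases, a ratio of 4.68 (2.72 to 8.05). The palindrome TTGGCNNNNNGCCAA of nuclear factor I, with at most 1 mismatch, was in 29 sites (3.43%), in 2.92% of all autosomal TRBS and in 0.927% of the flanks. It was in 10 sites past the 3′ end (5.46%) and in 19 upstream (2.87%), a difference of −2.59 points with an interval of −7.02 to 0.331. The element TCAAGGTCA of oestrogen-related receptors, which contains the half-site, was in 24 sites (2.84%, against 2.3% of all autosomal TRBS), 1.21 times its share in the flanks with an interval of 0.730 to 2.00. The C/EBP palindrome TTGCGCAA was in 3 sites (0.355%, against 0.298% of all autosomal TRBS). For all 10 motifs the interval of the difference between upstream sites and sites past the 3′ end included 0.

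**Figure D4:**
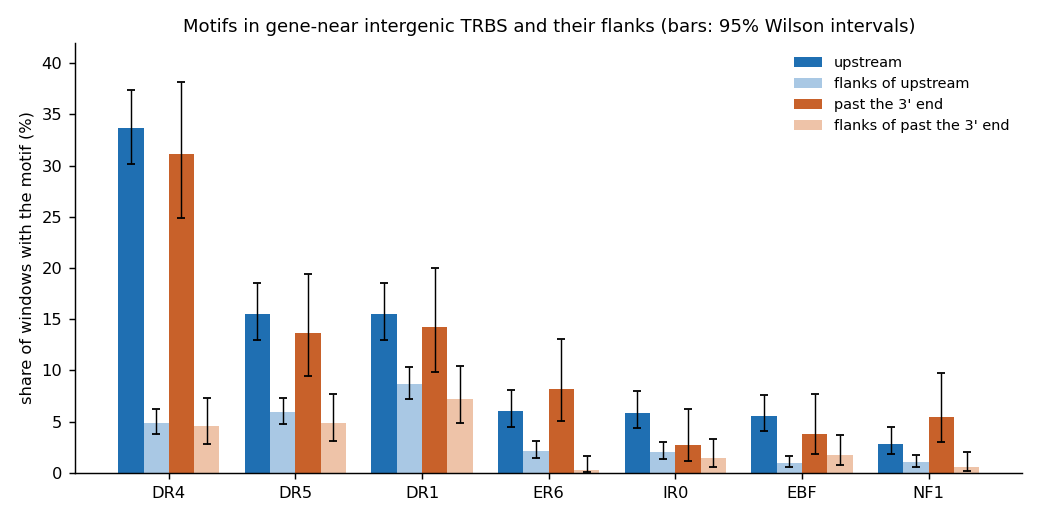
Share of gene-near intergenic TRBS and of their flanking windows that hold each motif, in percent with 95% Wilson intervals, for sites upstream (blue) and past the 3′ end (orange). DR4 is in 33.7% and 31.1% of the sites and in under 5% of the flanks, and the intervals of the 2 sides overlap for every motif shown.

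The 2 upstream sites with the most fragments lay 4514 and 2462 bp upstream of Ucp1, the uncoupling protein that lets brown adipocytes turn fuel into heat. They had 362 fragments (95% Poisson interval 326 to 401) and 267 fragments (236 to 301) at folds of 65.2 and 62.7. Input background at these summits was 4.57 and 3.28 fragments, above the median of 0.672, and its part in the counts was not tested. By fold, which is relative to this background, both came, among upstream sites, after the sites of Ptgds (70.63), Thrb (70.61) and Noct (68.6). The Ptgds summit lay in a tandem run of a short unit, described below. Ucp1 had 2 further sites at 5849 bp (86 fragments) and at 11606 bp (36 fragments), and only the former held a DR4, 233 bp from its summit. Background was raised at these as well, to 4.37 and 3.35 fragments.

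A site 3172 bp upstream of Ceacam16, a cell adhesion gene of the inner ear, had 137 fragments and the DR4 shown above, 29 bp from its summit. One 27186 bp upstream of Thrb, the gene of the thyroid hormone receptor TRβ, had 123 fragments (102 to 147), a fold of 70.6 and no DR4. The intervals of these fragment counts overlapped (115 to 162 for Ceacam16), so their order is not set. A site 11041 bp upstream of Dlg1, a scaffold protein of cell polarity, had 102 fragments. The one 21628 bp upstream of Noct, a circadian phosphatase linked to lipid handling, had 101 fragments and a DR4 with 2 mismatches at 72 bp from the summit.

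The list went on with Ptgds (2719 bp, 100 fragments), which encodes prostaglandin D2 synthase, and Epn2 (17870 bp, 94 fragments), which encodes the endocytic protein epsin 2. The window of 100 bp on each side of the Ptgds summit was largely a tandem run of a short unit. The DR4 of the Ptgds site, 18 bp from the summit, lay among these units, and how reads were placed there was not tested. Kdm6b (4538 bp, 93 fragments) encodes a demethylase of histone H3 lysine 27, and Klf9 (6281 bp, 91 fragments) a zinc-finger factor known as a direct hormone target in many cell types. Of these 10 sites, 5 held a DR4, a share near that of the 165 upstream sites with the most fragments (46.1%). Over all autosomal TRBS the share was 32.1%. At Klf9 the DR4 lay 760 bp from the summit in a run of GGGCA units. The Klf9 summit also lay 45 bp inside 2410080I02Rik, a gene that is not protein-coding, and so at the start of that gene.

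**Figure D5:**
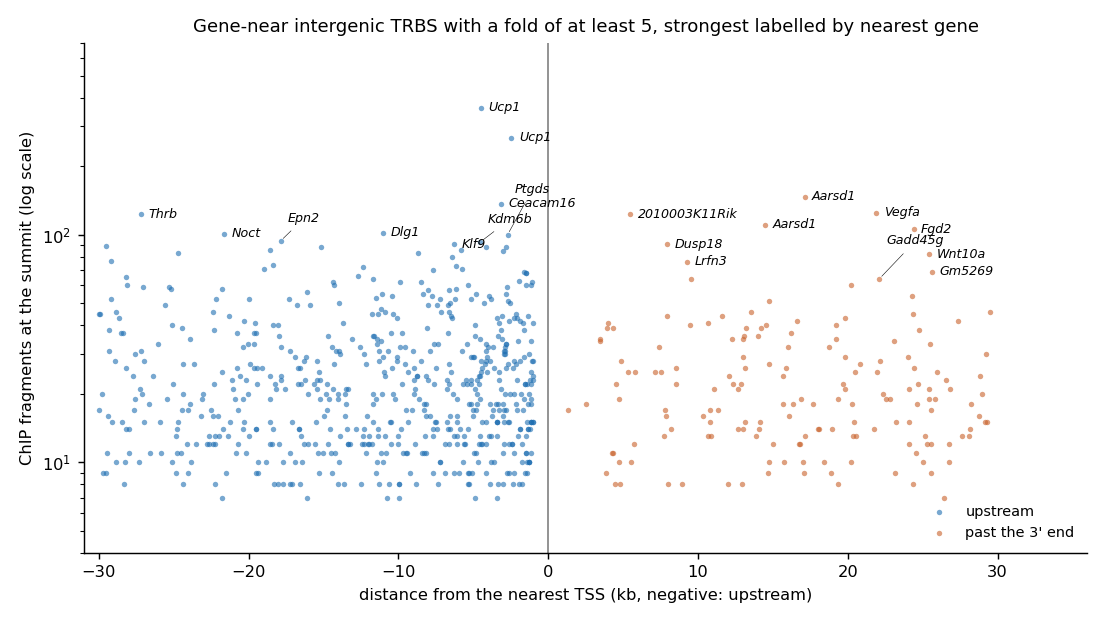
ChIP fragments at the summit (log scale) against the distance from the nearest TSS in kb for gene-near intergenic TRBS with a fold of at least 5, upstream (negative distances) and past the 3′ end (positive). The 10 strongest sites of each side (score of at least 60) are labelled by their nearest gene, with Cdkn2c, level with Gadd45g at 64, unlabelled; the 2 Ucp1 sites have the highest counts (362 and 267) at a raised input background, and by fold Ptgds, Thrb and Noct exceed them upstream. Past a 3′ end the highest counts are 147 (Aarsd1) and 125 (Vegfa).

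Past the 3′ end the strongest site with a fold of at least 5 lay 6345 bp beyond Aarsd1, a gene for an enzyme that edits mischarged tRNA, with 147 fragments (124 to 173) and the highest fold of the gene-near intergenic sites, 92.0. A second one lay 3712 bp beyond the same gene with 111 fragments (91.3 to 134). Both lay in a convergent gap with G6pc at its other end, the glucose 6-phosphatase of liver and kidney. Their summits were 2633 bp apart, but 192 bases in a row were the same in both peaks, so reads from one copy may have been placed on the other. The windows of 100 bp on each side of the 2 summits are shown because they resemble each other, although the stretch of 192 bases lies only in part within them. They are given on the plus strand, with no AGGTCA in either.
Aarsd1, 6345 bp past the 3′ end, chr11:101400394-101400594, plus strand: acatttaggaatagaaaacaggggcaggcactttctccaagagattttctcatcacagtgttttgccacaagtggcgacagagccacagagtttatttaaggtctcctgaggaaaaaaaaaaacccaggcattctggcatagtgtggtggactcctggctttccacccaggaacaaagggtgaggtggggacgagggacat
Aarsd1, 3712 bp past the 3′ end, chr11:101403027-101403227, plus strand: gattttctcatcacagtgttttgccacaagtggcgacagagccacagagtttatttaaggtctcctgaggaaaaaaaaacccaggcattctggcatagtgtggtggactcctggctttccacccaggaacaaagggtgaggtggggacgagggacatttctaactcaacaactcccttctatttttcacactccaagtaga

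The site 6520 bp beyond Vegfa, the main growth factor of blood vessels, had 125 fragments (104 to 149) and the DR4 shown above, 4 bp from its summit. Vegfa had 2 more sites past its 3′ end, with 34 and 10 fragments, and no site upstream by this rule. A site 3674 bp beyond 2010003K11Rik had 123 fragments at a fold of 86.7. Beyond Fgd2, an activator of the GTPase Cdc42, a site at 5649 bp had 106 fragments, and beyond Dusp18, a phosphatase gene, one at 1859 bp had 91.

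Wnt10a, a signal that inhibits adipocyte formation, had a site 12748 bp past its 3′ end with 82 fragments and a DR4 with 2 mismatches. Lrfn3, a neuronal adhesion gene, had one at 1983 bp with 76 fragments. Its peak held 14 overlapping DR4 matches, all in a tandem run of GGGCA units, and only 2 of the 845 sites had 5 or more matches. This summit and that of the stronger site past Cdkn2c each lay 185 bp from the start of a gene that is not protein-coding. Gm5269 (24842 bp past the 3′ end, 69 fragments) and Gadd45g (20308 bp, 64 fragments), a stress-induced gene of growth arrest, completed the 10 strongest, the last of them level in fragments with a site past Cdkn2c. By fragments alone the highest count past a 3′ end was 1369, at Gm11168 on chromosome 9. There the background was 630 fragments, the fold was 2.17 and 97.5% of the peak was repeat, and this was the only site with a recovered background over 10.

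The DR4 elements with 1 mismatch and the most fragments pointed to further genes. The site 4187 bp upstream of Prss52, a serine protease gene, had 88 fragments, and the site 5743 bp upstream of Eno1, the glycolytic enolase, had 71. A site 14343 bp upstream of Tet3, which encodes an enzyme that oxidises methylcytosine, had 62. Past the 3′ end, Cdkn2c, an inhibitor of the cell cycle kinases CDK4 and CDK6, had a site with 64 fragments whose DR4 lay 3 bp from the summit.

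The site assigned to Tmem189 with 80 fragments had another gene nearly as close. It lay 6399 bp upstream of Tmem189 and 7306 bp downstream of the TSS of Cebpb, 5803 bp past the 3′ end of that gene. Cebpb encodes C/EBPβ, a transcription factor of adipocyte formation and of the cAMP response. All 4 sites assigned to Tmem189 (83, 80, 72 and 28 fragments) lay past the 3′ end of Cebpb, 3903 to 24132 bp beyond it.

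The 845 sites had 705 different nearest genes, which is 3.39% of autosomal protein-coding genes. Of these genes 565 had an upstream site, 151 had one past the 3′ end and 11 had both. A single site was found for 605 genes, 2 sites for 72, 3 for 19 and 4 or more for 9. Another TRBS within 30 kb, either at most 1 kb from the TSS or in the gene body, was present at 168 of the 705 genes, and 537 had none. TRBS over 30 kb from the TSS were not counted here, even where they lie in the gene.

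The genes with most sites had 5 each. Pnpla5, a lipase of the adiponutrin family, had 5 sites upstream with 12 to 83 fragments in the divergent gap it shares with Pnpla3. Tob2, an antiproliferative gene, had 5 sites past its 3′ end with 9 to 43 fragments. Irf2bpl, a transcriptional cofactor gene, had 3 upstream and 2 past the 3′ end with 14 to 42 fragments. Genes with 4 sites were Ucp1, Thrsp, Tmem189, Slc1a5 and Ppara, with 4 sites upstream each, and Scd1, with 2 on each side.

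Most sites of these 9 genes held no DR4, which is also the case for TRBS in general. A DR4 was in 33.1% of gene-near intergenic sites and in 32.1% of all autosomal TRBS. Thrsp, a lipogenic gene that responds quickly to thyroid hormone in liver, had sites with 88, 60, 58 and 11 fragments at 2848, 1174, 6129 and 7314 bp, and only the one at 6129 bp held a DR4. Slc1a5, a glutamine transporter gene, had sites with 14 to 62 fragments and 1 DR4. Each of the 9 genes had a DR4 in 1 site, except Tmem189, which had it in 2.

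Another summit within 10 kb was found for 29.9% of all autosomal TRBS and for 273 of the gene-near intergenic sites (32.3%, 29.2 to 35.5%). The share was 31.3% upstream and 36.1% past the 3′ end, a difference of −4.80 points with an interval of −12.8 to 2.74. Over both sides the share was 7.85 points (3.13 to 12.4) above that of TRBS close to a TSS, and it differed by −4.83 points (−8.81 to −0.770) from that of TRBS in gene bodies. It was 6.54 points (2.94 to 10.2) above that of TRBS over 30 kb away.

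Lists of genes of brown fat and of hormone action were then looked up among the nearest genes. At least 1 gene-near intergenic site was found for 64 of 321 listed autosomal genes (19.9%), against 3.39% of all autosomal protein-coding genes. The lists were chosen with results of these data known, so this difference is not independent evidence, and the amount of intergenic sequence around each gene was not matched. Of all 705 nearest genes 565 had an upstream site, so a site upstream was the usual case. Of the 20 brown adipocyte genes 7 had a site, all upstream. Besides Ucp1 these included Ppargc1a, the coactivator that drives mitochondrial biogenesis, with sites at 28171 bp (65 fragments) and 24116 bp (12 fragments). Ppara, the receptor that turns on fatty acid oxidation, had its strongest site at 28880 bp with 46 fragments and a DR4 of 1 mismatch. Fabp4, which encodes a fatty acid binding protein, had 18 fragments at 5274 bp. Cidea, Cox8b and Plin1 had 8 fragments each.

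Genes of fat storage were among the lists with the largest shares. In the list of lipid uptake and triglyceride handling 10 of 26 genes had a site, all upstream. Dgat2, which makes triglyceride from diacylglycerol, had its strongest site at 4838 bp with 55 fragments. Plin2, a lipid droplet coat protein, had 40 fragments at 25142 bp, and Pnpla2, the adipose triglyceride lipase, 35 at 3058 bp. Lpin1, a phosphatidate phosphatase, had 33 at 20077 bp. The others with a site were Lpl, Gpam, Fabp3, Fabp4, Cidea and Plin1.

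In fatty acid synthesis 6 of 16 genes had a site, including Thrsp. Scd1, the stearoyl-CoA desaturase, had 62 and 36 fragments upstream and 40 and 14 past its 3′ end. Elovl5, an elongase of polyunsaturated fatty acids, had 57 fragments at 6652 bp upstream. Scd2, a second desaturase, had 18 fragments at 26633 bp. Acacb and Srebf1 had 16 and 12. In fatty acid oxidation 1 of 18 genes had a site (5.56%, near the 3.39% of all genes). It was Pdk4, a kinase that shuts pyruvate out of oxidation, which is also in the glucose list, with 64, 50 and 24 fragments at 11667, 2522 and 1003 bp.

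In glucose uptake and glycolysis 5 of 18 genes had a site, all upstream. Beside Eno1 and Pdk4 these were Txnip, a brake on glucose uptake (26 fragments at 2819 bp), Ldha, lactate dehydrogenase (14 fragments at 1870 bp), and Pfkl, a phosphofructokinase (11 fragments). In the mitochondrial list 4 of 22 genes had one. Ucp3, a relative of Ucp1, had 69 fragments at 1586 bp, the carrier gene Slc25a25 had 24 fragments at 18570 bp, Uqcrc1, of respiratory complex III, had 15 and Cox8b had 8. In the insulin list Irs2, an insulin receptor substrate with 11 fragments, was the only one of 17.

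Of 20 growth arrest genes 8 had a site, 4 upstream and 4 past the 3′ end, where over all genes 565 had one upstream and 151 past the 3′ end. Their sites numbered 4 upstream and 10 past the 3′ end, 5 of the latter at Tob2. Past the 3′ end were Gadd45g, Tob2, Ddit4, an inhibitor of mTOR signalling (35 fragments at 17024 bp), and Gadd45b. Upstream were Atf3, a stress-induced transcription factor (50 fragments at 6532 bp), Tob1, Gadd45a and Cdkn1a. In cytokine signalling 3 of 17 had a site. Socs2, an inhibitor of growth hormone signalling, had 36 fragments at 3338 bp upstream. Cish, a related inhibitor, had sites with 25 and 12 fragments 765 and 10050 bp past its 3′ end, and Socs1 had the perfect DR4 shown above.

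Among 16 classic hormone targets of other tissues, 5 had a site, all upstream. Hr, the corepressor hairless, had 51 fragments at 2715 bp with a DR4 of 2 mismatches, 130 bp from the summit. Bcl3, a cofactor of NF-κB, had 39 and 38 fragments at 8098 and 1605 bp, and Atp2a2, the calcium pump of the sarcoplasmic reticulum, had 29, 27 and 9. Klf9 and Thrsp are described above. Of 11 autosomal genes of thyroid hormone signalling, Thrb was the only one with a site. Of 14 corepressors and coactivators 4 had one upstream, among them Ppargc1a, described above, and Tbl1xr1, a part of corepressor complexes, at 22 fragments, and Ppargc1b, a coactivator related to Ppargc1a, at 13 and 6.

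Of 24 adipocyte transcription regulators 6 had a site. Klf10, a factor induced by growth signals, had 60, 19 and 15 fragments past its 3′ end, and Cebpa, a main regulator of adipocyte formation, had 20 fragments 19708 bp past its 3′ end. Srebf1 and Zfp423 had 12 and 9 upstream. In adrenergic and cAMP signalling 4 of 21 genes had a site, among them the following. Adrb1, the β1-adrenergic receptor, had 39 fragments 3274 bp past its 3′ end and 9 fragments upstream. Adcy3, an adenylate cyclase, had 31 fragments at 5744 bp upstream. Prkar2b, a regulatory subunit of protein kinase A, had 11 and 8 upstream.

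Of 19 circadian clock genes 6 had a site. Hlf and Nfil3, a pair of bZIP factors of the clock output, had 31 and 30 fragments at 27177 and 27573 bp upstream. Nr1d1, which encodes the haem-binding repressor REV-ERBα, had 23 at 8018 bp. Bhlhe40, which encodes the clock factor DEC1, had 16 fragments 1547 bp past its 3′ end. Tef had sites on both sides, with 14 upstream and 7 past the 3′ end, and Cry2, a repressor of the clock, had 12 and a DR4 of 1 mismatch. Among 23 other nuclear receptors Esr1, the oestrogen receptor α, with 22 and 15 fragments, and Nr1d1 had a site. Vegfa was the only one of 18 secreted factors.

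Markers of other cells that the tissue can hold were looked up as well. None of 8 macrophage, 8 endothelial and 8 neuronal markers had a gene-near intergenic site, and 1 of 8 muscle markers did, Myog, with 41 fragments 1409 bp past its 3′ end. With 3.39% of all autosomal protein-coding genes having a site, lists of this size would be near 0 in any case, so these counts are no check of the labelled cell type. A site near a gene says nothing on whether the gene is expressed, and expression was not analysed here.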

How the data were processed

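Paired-end reads of 1 ChIP and 1 input library were aligned by the authors to GRCm38 (mm10), and peaks were called in the ChIP against the input. The submitters' processing notes name Bowtie2 (2.3.2.2) and MACS2 (2.1.1.20160309.6). The deposited list held 5107 peaks. The deposited score of each peak, given by the authors' peak caller, is 10 times the −log10 q-value, rounded down. Its fold is the ratio of ChIP pileup to local background, each with a pseudocount of 1, and the deposited −log10 p-value comes from a Poisson test. The deposited summit offset was added to the peak start. Scores below 60, which the study's methods filter out, were still present for 897 peaks, and these were kept.

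Fold and p-value together gave whole ChIP fragments at the summit for 5090 peaks (tolerance 0.0005 in −log10 p), 5052 with 1 solution. Library totals were not used, so depth is given only as these fragments. Genes were the 20807 autosomal protein-coding genes of the basic GENCODE annotation, and sequence was RefSeq GRCm38.p6. Shares have 95% Wilson intervals, their differences Newcombe intervals, densities exact Poisson intervals, density ratios exact binomial intervals given the total, and ratios of shares intervals on the log scale. Intervals of medians use order statistics. With 1 library each, no test between conditions was possible. The same-width flanks lay 2 kb beyond each edge, without windows meeting a peak or an assembly gap. Scripts used Python 3.11.15, numpy 2.4.6, pandas 2.3.3 and scipy 1.17.1, and were tested on simulated data.

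Named were the nearest genes of the 10 sites per side with the most fragments (score of at least 60, fold of at least 5), listed genes with up to 4 per list in detail, genes with the most sites (ties included) and genes of the 10 sites with the DR4 of fewest mismatches and then most fragments, besides sites near the limits of the rule. Others were named after their values were seen: Cebpb, G6pc, Pnpla3, 2410080I02Rik and Gm11168 as neighbours or exceptions, Cdkn2c and Tet3 as next in order of DR4, and further genes of the lists with their fragments. The sites and the lists were chosen with earlier results of these data known. Alternatives were the gene set, limits of distance, score, fold and merging, and those on tandem gaps were chosen after seeing the data. A few listed genes that were counted are not reported here by name.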

Additional observations from a re-analysis of the deposited data

How the results depend on the processing

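Of the recomputed values most stayed close to those reported. With genes of all types the share upstream was 65.7%, and the density ratio of upstream over past the 3′ end became 1.15 (1.02 to 1.31), an interval without 1. With a limit of 10 kb there were 376 sites, 88.6% of them upstream, a density ratio of 1.28 (0.929 to 1.80) and 352 nearest genes. With a lower limit of 3 kb the share upstream was 75.2%. The ratio of DR4 shares in sites over flanks was 22.7 with at most 1 mismatch, 2.07 with at most 3, and 15.1 within 100 bp of the summit, and the cause was not tested. The difference in DR4 share between the sides ranged from −1.13 to 8.35 points. In tandem gaps the density ratio was 1.40 (1.06 to 1.86) with a score of at least 60 and 1.47 (1.13 to 1.94) with a fold of at least 5, both chosen after seeing the data. No paired analysis was possible because there is 1 library of each kind. Depth limits what can be ranked: the median site rests on 19 fragments, whose counting error alone is large, and a summit with under 10 fragments cannot be ranked against its neighbours. The reads carried no molecular identifiers, and with 1 library of each kind intervals cover counting error only.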

Other observations

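Some of these sites lie in sequence that occurs more than once nearby. Of 144 pairs of gene-near intergenic sites at most 10 kb apart (chromosome 18 left out), 5 shared at least 50 bases in a row. The Aarsd1 pair is one of them. Eif4g3, which encodes a translation initiation factor, accounts for 3 more: its sites 10982, 15211 and 19461 bp upstream of the TSS had 25, 23 and 26 fragments, and the shared stretches of 417 to 460 bases are as long as the peaks, which were 417 to 462 bp wide. The last pair was in the repeat at Gm11168 and Gm10721 on chromosome 9. How reads with several possible positions were placed was not tested, so 3 sites upstream of Eif4g3 cannot be told apart from 1.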
